A study of Mus musculus with 6 samples.

Results

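The genes described here are 10 transcripts of the signaling through fibroblast growth factor (FGF) and the kinase ERK in mouse embryonic stem cells (mESCs). They are the ligand Fgf4, the ERK phosphatases Dusp4, Dusp5 and Dusp6, the inhibitors Spry1, Spry2, Spry4 and Spred1, and the transcription factors Etv4 and Etv5. They were taken by name from the 54352 genes of the deposited table, and all 10 were present. RNA was measured in 3 SIRT1 KO and 3 WT libraries of male 129Sv/J mESCs grown in serum-free ESGRO medium. SIRT1 is a protein deacetylase that uses NAD+. The study obtained its SIRT1 KO mESCs by gene targeting in the R1 line. Both genotypes are thus read here as 1 line each, so that the p-values measure the spread between libraries of a line and not between independently made lines. The study calls its replicates biological, and no source used here says what a replicate number stands for.

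FGF4 is secreted by mESCs and acts on FGF receptors of the same cells. The receptors recruit the adaptors FRS2 and GRB2, which activate RAS and then the kinases RAF, MEK and ERK. ERK activity favors the exit of mESCs from naive self-renewal toward differentiation. Active ERK also induces its own inhibitors. DUSP proteins remove phosphate from ERK, Sprouty (SPRY) and SPRED proteins act upstream at the level of RAS and RAF, and transcription of these inhibitors is widely used as a readout of the pathway. ETV4 and ETV5 are ETS-domain transcription factors whose genes are induced by FGF signaling.

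The 6 libraries correlated at 0.9982 or more within a genotype and at 0.9951 to 0.9965 between genotypes over the 26571 genes tested. Sirt1 was lower in every SIRT1 KO library, at 13.71, 13.72 and 13.79 on the log2 scale, than in the WT libraries, at 15.52, 15.54 and 15.49, and its antisense gene Gm16145, which shares 65 exonic bases with it, had 4.11 to 4.21 in all 6. The Sirt1 difference was -1.78 (SE 0.049, limma adjusted p = 1.16e-07). Pluripotency genes marked both genotypes as mESCs. None of 8 ES cell markers, among them Pou5f1, Nanog and Sox2, passed the test (limma, 2 at an unadjusted p under 0.05) except Sox2 without WT replicate 2 (-0.27, adjusted p = 0.000605) and after quantile normalization, and their summed linear value was 1930563 to 1975149 in SIRT1 KO and 1915659 to 1993410 in WT libraries. Markers of other cell types did move, in both directions, where 8.47% of all genes tested were higher and 8.12% lower (limma adjusted p under 0.01). Of 5 trophoblast markers, 2 were higher (Eomes and Krt8) and 1 was lower, with summed values of 39475 to 41876 in SIRT1 KO against 22720 to 24100 in WT libraries. Of 5 primed epiblast markers, 2 were higher (Dnmt3b and Fst, of which Fst lost its call when WT replicate 1 or any one SIRT1 KO library was left out) and 1 was lower (Otx2), with sums of 40796 to 41676 in SIRT1 KO against 27576 to 28965 in WT, and of 4 tested neural progenitor markers 1 was higher (Nes) and 1 was lower (Sox1), with sums of 26097 to 26890 in SIRT1 KO against 15960 to 18142 in WT. Of 6 primitive endoderm markers, 1 was higher and 3 were lower, Gata6 among them, with sums of 2249 to 2564 in SIRT1 KO against 1817 to 2105 in WT. Of 3 tested fibroblast markers 1 was higher, with sums of 2839 to 3288 in SIRT1 KO against 2270 to 2448 in WT and the defining gene Dcn listed at 0. The linear sums weigh abundant genes most. By mean in SIRT1 KO libraries, the highest markers of these lists were Krt8, Dnmt3b, Nes, Sox7 and Pdgfrb. Their log2 fold changes were 2.36, 0.61, 0.87, 0.96 and 0.38. A raised sum thus does not mean that its list rose as a whole. The part of such other cell types in the results below was not tested, and in bulk RNA a change in the share of a cell type and a change in RNA per cell cannot be told apart. WT replicate 2 deviated most from the mean of its genotype, by 0.141 on the log2 scale (root mean square over genes) against 0.0662 to 0.123 in the other libraries.

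Of the 10 genes, 3 were higher in SIRT1 KO mESCs, none was lower and 7 did not pass the test. The higher genes were the phosphatases Dusp5 and Dusp6 and the Sprouty gene Spry2. Among all genes tested, 8.47% were called higher and 8.12% lower by the same test (limma on the deposited log2 values, Benjamini-Hochberg adjusted p under 0.01). At an unadjusted limma p under 0.05, 5 genes lay above WT and 2, Dusp4 and Etv5, lay below. The share of all genes at that unadjusted threshold is not given, so counts at it, here and elsewhere, have no baseline. The median log2 fold change of the 10 genes was 0.12, against -0.01 for all genes tested. These genes were chosen with earlier results of the data known, so that their count is a description. All SIRT1 KO values lay above all WT values for 4 of the 10 (Dusp5, Dusp6, Spry1 and Spry2) and below them for 2 (Dusp4 and Etv5), where 21.8% and 22.9% of all genes tested did so, 44.7% in all.

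**Figure D1:**
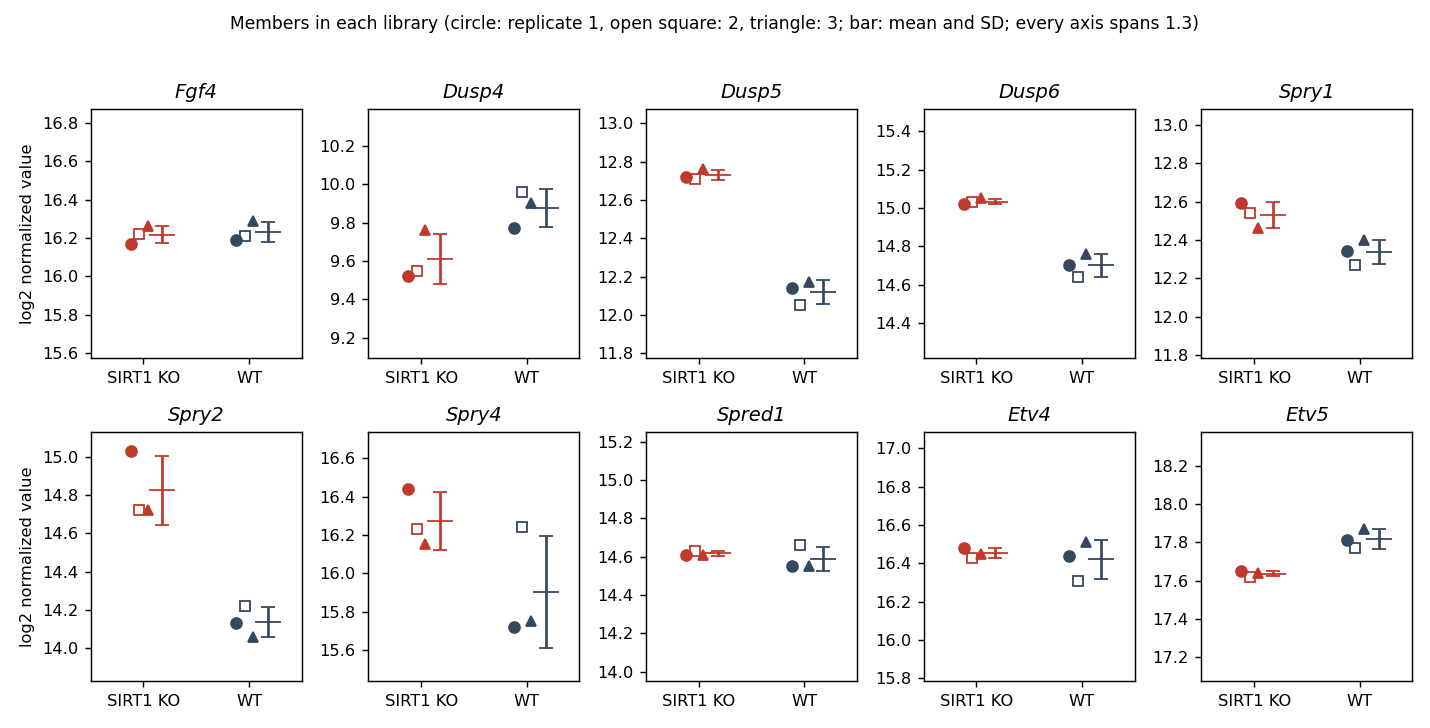
Log2 normalized value of each of the 10 genes (vertical axis, spanning 1.3 in every panel) in the 3 SIRT1 KO and the 3 WT libraries, 1 point per library, with the mean and SD beside them. Dusp5, Dusp6 and Spry2 separate the genotypes, Fgf4, Spred1 and Etv4 do not, and for Spry4 the WT replicate 2 value of 16.24 lies among the SIRT1 KO values.

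Dusp5 and Dusp6 encode phosphatases that act on ERK with high selectivity, DUSP5 in the nucleus and DUSP6 in the cytoplasm. Dusp5 lies on the plus strand of chromosome 19 (GRCm38, 53529109 to 53542431). It had log2 normalized values of 12.72, 12.71 and 12.76 in SIRT1 KO libraries, against 12.14, 12.05 and 12.17 in WT libraries. The genotypes were far apart relative to the spread within each, and the log2 fold change was 0.61 (SE 0.058, limma adjusted p = 9.31e-05), a ratio of 1.53. The call of Dusp5 held in each of 17 alternative fits, with adjusted p from 2.75e-05 to 0.00132. An annotated antisense gene, AC137853.2, shares 547 exonic bases with Dusp5, and since no source used here states whether reads were counted by strand, their reads cannot be separated, and AC137853.2 was not analysed here.

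Dusp6 lies on the plus strand of chromosome 10 (99263231 to 99267489). Its values were 15.02, 15.03 and 15.05 in SIRT1 KO libraries, against 14.70, 14.64 and 14.76 in WT libraries. The SIRT1 KO values were nearly identical to each other and all above WT, at a log2 fold change of 0.33 (SE 0.050, limma adjusted p = 0.00132). This call was lost without SIRT1 KO replicate 2 (adjusted p = 0.0116) or SIRT1 KO replicate 3 (adjusted p = 0.0113), while the fold change stayed at 0.33, and over all alternatives the adjusted p ran from 0.000355 to 0.0116.

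Dusp4, on the plus strand of chromosome 8 (34807297 to 34819894), encodes a nuclear phosphatase that acts on ERK and on the stress-activated kinases. Its values were 9.52, 9.55 and 9.76 in SIRT1 KO libraries, against 9.77, 9.96 and 9.90 in WT libraries. The groups did not overlap, but the highest SIRT1 KO value lay next to the lowest WT value. The log2 fold change of -0.27 (SE 0.093, limma adjusted p = 0.0639) did not pass.

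The distances between the phosphatases were compared library by library. Within a library, Dusp5 lay above Dusp4 by 3.12 ± 0.11 on the log2 scale in SIRT1 KO and by 2.24 ± 0.15 in WT mESCs (SD, n = 3 for both), and Dusp6 lay above Dusp4 by 5.42 ± 0.12 in SIRT1 KO and 4.82 ± 0.13 in WT mESCs. The distance between Dusp5 and Dusp6 also differed, at -2.30 ± 0.017 in SIRT1 KO and -2.58 ± 0.025 in WT mESCs (SD, n = 3 for both). In each of these pairs the genotypes did not overlap (two-sided exact permutation test, p = 0.10, adjusted p = 0.117 over 7 pairs). With 3 against 3 libraries that p is the smallest possible in this unpaired test, so no pair could pass the correction.

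Sprouty proteins are membrane-associated inhibitors of receptor tyrosine kinase signaling. Spry2, on the minus strand of chromosome 14 (105891947 to 105896819), had values of 15.03, 14.72 and 14.72 in SIRT1 KO libraries, against 14.13, 14.22 and 14.06 in WT libraries. All SIRT1 KO values were well above WT, with SIRT1 KO replicate 1 highest. The log2 fold change of 0.68 (SE 0.089, limma adjusted p = 0.000547) was the largest of the 10 genes, a ratio of 1.61. The call held in all 17 alternative fits, with adjusted p from 0.000149 to 0.00423.

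Spry4, on the minus strand of chromosome 18 (38586247 to 38601415), had values of 16.44, 16.23 and 16.15 in SIRT1 KO libraries, against 15.72, 16.24 and 15.75 in WT libraries. Of the WT libraries, replicates 1 and 3 lay below all SIRT1 KO values and replicate 2 lay among them. With 6 libraries the log2 fold change was 0.37 (SE 0.14, limma adjusted p = 0.0708), which did not pass. Without WT replicate 2 it was 0.54 and passed (adjusted p = 0.000333), and over all alternatives the adjusted p ran from 0.000333 to 0.223.

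Spry1, on the plus strand of chromosome 3 (37639947 to 37644598), had values of 12.59, 12.54 and 12.46 in SIRT1 KO libraries, against 12.34, 12.27 and 12.40 in WT libraries. The genotypes did not overlap but lay close together. The log2 fold change of 0.20 (SE 0.063, limma adjusted p = 0.0463) did not pass at 0.01 in any alternative and would pass at a threshold of 0.05. Gm42922, which overlaps 710 exonic bases of Spry1 on the other strand, was at 3.22 to 3.30 in SIRT1 KO and 3.19 to 3.21 in WT libraries. The distance between Spry2 and Spry1 within a library was 2.29 ± 0.13 in SIRT1 KO and 1.80 ± 0.15 in WT mESCs (SD, n = 3 for both), and that between Spry2 and Spry4 was -1.46 ± 0.050 in SIRT1 KO and -1.77 ± 0.22 in WT mESCs. Without WT replicate 2 the genotypes differed in the distance between Spry2 and Spry4 by 0.19, against 0.31 with all libraries. With all libraries neither distance overlapped between genotypes (exact permutation test, p = 0.10, adjusted p = 0.117 over 7 pairs). The distance between Spry4 and Spry1, 3.74 ± 0.091 in SIRT1 KO and 3.57 ± 0.35 in WT mESCs, did overlap (exact permutation test, p = 0.40, adjusted p = 0.40), and the genotypes differed in it by 0.18, or 0.38 without WT replicate 2.

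Spred1 encodes a relative of the Sprouty proteins that brings the RAS inactivator neurofibromin to the membrane. It lies on the plus strand of chromosome 2 (117121374 to 117182279). Its values were 14.61, 14.63 and 14.61 in SIRT1 KO libraries, against 14.55, 14.66 and 14.55 in WT libraries. The genotypes overlapped, at a log2 fold change of 0.03 (SE 0.051, limma adjusted p = 0.683).

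Etv4 and Etv5 were the most abundant of the 10 genes per kilobase of exon. Etv5, on the minus strand of chromosome 16 (22381309 to 22439719), had values of 17.65, 17.62 and 17.64 in SIRT1 KO libraries, against 17.81, 17.77 and 17.87 in WT libraries. Every SIRT1 KO value was below every WT value. The log2 fold change of -0.19 (SE 0.049, limma adjusted p = 0.0214) did not pass with 6 libraries. It passed without WT replicate 2 (-0.21, adjusted p = 0.00142) and after quantile normalization (-0.30, adjusted p = 0.000295), and over all alternatives the adjusted p ran from 0.000295 to 0.138. Etv4, on the minus strand of chromosome 11 (101769742 to 101785371), had values of 16.48, 16.43 and 16.45 in SIRT1 KO libraries, against 16.44, 16.31 and 16.51 in WT libraries. These overlapped, at a log2 fold change of 0.03 (SE 0.059, limma adjusted p = 0.719) that ran from -0.04 to 0.09 over the alternatives. Etv5 lay above Etv4 by 1.18 ± 0.011 in SIRT1 KO and by 1.40 ± 0.052 in WT mESCs (SD, n = 3 for both), without overlap (exact permutation test, p = 0.10, adjusted p = 0.117 over 7 pairs).

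Fgf4, the ligand at the head of the pathway in mESCs, lies on the plus strand of chromosome 7 (144847367 to 144865243). Its values were 16.17, 16.22 and 16.26 in SIRT1 KO libraries, against 16.19, 16.21 and 16.29 in WT libraries. The ranges overlapped almost completely, and the log2 fold change was -0.02 (SE 0.052, limma adjusted p = 0.856). It lay between -0.10 and 0.04 over the alternatives, none of which called it.

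**Figure D2:**
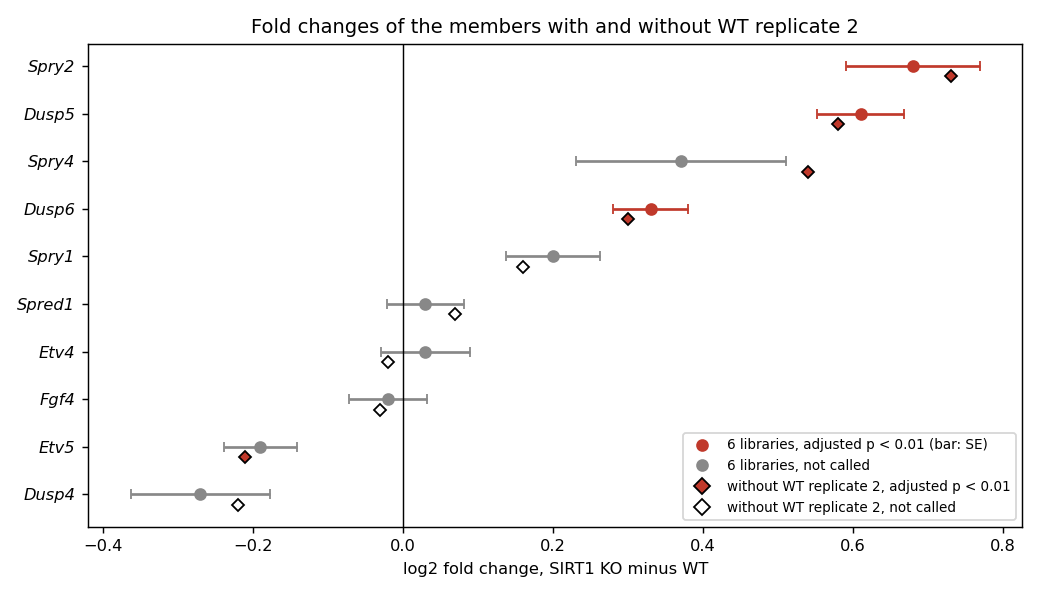
Log2 fold change of each of the 10 genes, SIRT1 KO minus WT, with 6 libraries (circles, bars are the SE) and without WT replicate 2 (diamonds), filled in red where the adjusted p is under 0.01. Spry2 at 0.68 and Dusp5 at 0.61 were the largest, and leaving out WT replicate 2 added calls for Spry4 at 0.54 and Etv5 at -0.21.

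Levels were compared between genes as linear normalized values per kilobase of exon, with exonic lengths from GENCODE vM21. These lengths join all annotated exons of a gene, and the transcripts expressed were not determined. The order of genes close in level depends on them, and the ranges over libraries do not include that uncertainty. Etv5 was highest, with 49605 ± 522 in SIRT1 KO and 56414 ± 1934 in WT mESCs (SD, n = 3 for both), and Dusp4 was lowest, with 286 ± 26.6 in SIRT1 KO and 344 ± 22.8 in WT mESCs. In between, in descending order of the mean over 6 libraries, were Etv4, Fgf4, Spry4, Spry2, Dusp6, Spred1, Dusp5 and Spry1. Some neighbours in this order had overlapping ranges in 1 genotype and not in the other. Spry2 and Dusp6 ranged from 12898 to 15983 and from 10630 to 10809 per kilobase in SIRT1 KO mESCs, without overlap, whereas in WT mESCs Spry2 ranged from 8156 to 9138 and Dusp6 from 8168 to 8869. Dusp5, at 2707 to 2805, lay above Spry1, at 1944 to 2125, in SIRT1 KO mESCs, and in WT mESCs the ranges were 1710 to 1861 for Dusp5 and 1694 to 1859 for Spry1. Spry4 and Spry2 overlapped in SIRT1 KO mESCs, at 15332 to 18736 and 12898 to 15983, and not in WT mESCs, at 11374 to 16265 and 8156 to 9138. The other neighbours in this order did not overlap in either genotype.

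**Figure D3:**
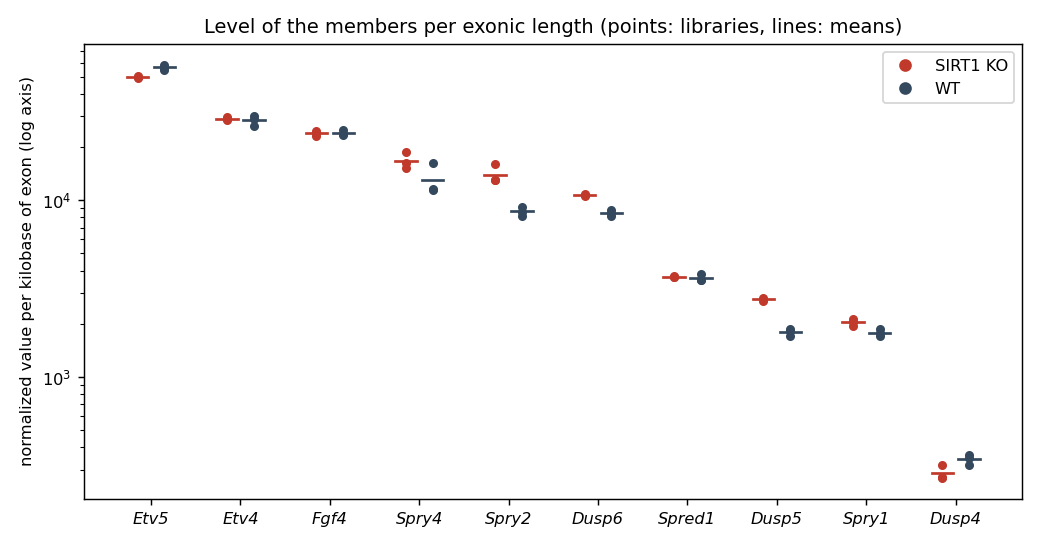
Linear normalized value per kilobase of exon (log axis) for each of the 10 genes, SIRT1 KO left of WT, with 1 point per library and a line at the mean. Levels span from 286 for Dusp4 in SIRT1 KO mESCs to 56414 for Etv5 in WT mESCs, and at these annotated lengths the ranges of Dusp5 and Spry1 overlap in WT but not in SIRT1 KO mESCs.

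Because Dusp5, Dusp6 and Spry2 were the genes that passed the test, their promoters are shown. The sequences are from RefSeq on GRCm38.p6 and hold bases before the annotated transcription start, given 5′ to 3′ on the strand of the gene. Capitals mark the ETS core GGAA on either strand (TTCC where it lies on the other) and the CArG box, the binding motif of serum response factor (SRF). Dusp5 is at chr19:53528895-53529108 on the plus strand, Dusp6 at chr10:99262981-99263230 on the plus strand and Spry2 at chr14:105896820-105897069 on the minus strand.
Dusp5: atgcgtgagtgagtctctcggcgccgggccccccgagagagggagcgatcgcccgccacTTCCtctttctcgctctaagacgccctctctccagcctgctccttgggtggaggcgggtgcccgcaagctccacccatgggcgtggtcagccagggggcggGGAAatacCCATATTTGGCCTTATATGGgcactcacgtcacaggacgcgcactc
Dusp6: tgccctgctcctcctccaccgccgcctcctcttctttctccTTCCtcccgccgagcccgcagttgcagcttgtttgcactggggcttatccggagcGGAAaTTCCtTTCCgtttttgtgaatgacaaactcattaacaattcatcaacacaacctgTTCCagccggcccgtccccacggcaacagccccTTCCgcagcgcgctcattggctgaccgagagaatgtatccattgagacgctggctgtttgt
Spry2: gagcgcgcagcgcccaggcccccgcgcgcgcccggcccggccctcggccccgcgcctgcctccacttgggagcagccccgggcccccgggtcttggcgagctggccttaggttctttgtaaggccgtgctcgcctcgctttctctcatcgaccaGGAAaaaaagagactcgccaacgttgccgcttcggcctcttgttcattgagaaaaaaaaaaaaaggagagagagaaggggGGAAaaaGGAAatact

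The Dusp5 promoter held 2 CArG boxes side by side, with their first bases at -82 and -72 from the RefSeq start. A CArG box was found in 1.47% of 32851 mouse promoters of the same 250 bases. Among 79 of the genes described here and of the lists below that had a promoter in the RefSeq table, Dusp5, Egr2 and Srf held one, and Egr2 (log2 fold change -0.04, SE 0.053, limma adjusted p = 0.65) and Srf (0.12, SE 0.058, adjusted p = 0.174) did not pass the test. The Dusp6 promoter held 6 copies of GGAA or TTCC, a number reached by 8.69% of promoters, and the 250 bases of Dusp5 and of Spry2 held 3 each, which is the median. Of the Dusp5 copies, 2 are in the stretch shown, which ends where the GENCODE gene begins. None of the 3 promoters held CCGGAA (12.0% of promoters), the E-box CACGTG (6.02%), the cyclic AMP element TGACGTCA (1.55%) or the AP-1 motif TGANTCA (6.75%), each searched on both strands, where CCGGAA overlaps GGAA. These are matches of letters in a window, and binding was not measured. RefSeq promoters were found for 7 of the 10 genes, and neither Fgf4 nor Spry1, Spred1 or Etv5 held a CArG box.

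In the 5-Mb windows that hold the 10 genes, the median log2 fold change of the other tested genes ran from -0.01 to 0.04. Of the 10 nearest tested protein-coding genes of Dusp5, 5 on each side, 1 was higher (Smc3, a cohesin subunit, 0.28) and 1 was lower (Add3, a cytoskeletal adducin, -0.39), with a median of 0.05. Around Dusp6, 2 of 10 were lower and none was higher (limma, also none at an unadjusted p under 0.05), with a median of -0.20 and with Kitl, the ligand of the receptor KIT, at -0.93 (SE 0.092, limma adjusted p = 0.00012). Around Spry2, where these genes lie 209 to 11028 kb away, 3 of 10 were higher and 1 was lower, with a median of -0.03. The shares of all genes tested were 8.47% higher and 8.12% lower. When a library was left out, 0 to 1 neighbours of Dusp5, none of Dusp6 and 2 to 3 of Spry2 were higher, and 1 to 2 of Dusp5, 1 to 2 of Dusp6 and 0 to 1 of Spry2 were lower. Smc3 lost its call when WT replicate 1 or any one SIRT1 KO library was left out. The genes whose values followed those of Dusp5 most closely were Gss, encoding glutathione synthetase, Aaas, encoding a protein of the nuclear pore, and Ftl1, encoding ferritin light chain. Their root mean square differences from Dusp5, after each gene was centred on its own mean over the 6 libraries, were 0.0154, 0.0193 and 0.0196, the smallest among 18405 genes with a mean of at least 100. The log2 fold changes of Gss, Aaas and Ftl1 were 0.62, 0.59 and 0.63, beside 0.61 for Dusp5. Such a ranking favors genes with a like genotype difference and a small spread, and shared regulation was not tested.

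The rest of the pathway was described by 5 lists of 96 genes, of which 95 were in the table and 88 were tested. In these lists 10 genes (11.4%) were higher, 9 (10.2%) were lower and 69 did not pass, against the same 8.47% and 8.12% of all genes tested, and the median log2 fold change was -0.08. Without WT replicate 2 the number of lower genes was 15, where 2669 of 26565 genes tested were lower. Some genes of the lists have more than one role, and the lists were chosen with earlier results of the data known.

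Among 15 tested FGF ligands other than Fgf4, 1 was higher and 2 were lower. Fgf2, basic FGF, had 7.03 ± 0.069 in SIRT1 KO and 7.86 ± 0.088 in WT mESCs (SD, n = 3 for both), a log2 fold change of -0.83 (SE 0.080, limma adjusted p = 0.000103). Its level was low, at 19.4 ± 0.943 per kilobase in SIRT1 KO and 34.3 ± 2.14 in WT mESCs. Fgf17, a member of the FGF8 subfamily, was lower by the same test (-0.50, SE 0.092, adjusted p = 0.00394) except without SIRT1 KO replicate 2 (adjusted p = 0.0132) or WT replicate 3 (adjusted p = 0.0208). Its adjusted p lay between 0.0016 and 0.0208 in all alternatives. Fgf21, a hormone-like FGF known as a target of the stress factor ATF4, had a low level, 4.94 ± 0.010 in SIRT1 KO and 4.78 ± 0.027 in WT mESCs. Its call (0.16, SE 0.035, limma adjusted p = 0.00937) was lost in 9 of 16 alternatives, among them the fit with a replicate block (adjusted p = 0.0194) and all that left out a library (adjusted p from 0.0194 to 0.0368). Its adjusted p ran from 0.00259 to 0.0368 over all. Fgf17 had the highest level per kilobase of the list, 2345 ± 283 in SIRT1 KO and 3294 ± 158 in WT mESCs, far below Fgf4 at 23826 ± 780 in SIRT1 KO and 24088 ± 917 in WT mESCs.

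Of 11 tested receptors, co-receptors and docking proteins, 1 was higher and 3 were lower. Fgfr1, the main FGF receptor by level at 2427 ± 146 per kilobase in SIRT1 KO and 2561 ± 210 in WT mESCs, had a log2 fold change of -0.08 (SE 0.072, limma adjusted p = 0.479). Fgfr3 was higher at 0.55 (SE 0.074, adjusted p = 0.000668), at a low level of 86.3 per kilobase in SIRT1 KO and 59.0 in WT mESCs. The lower genes were the FGF receptor-binding membrane proteins Flrt2 (-0.69, SE 0.064, adjusted p = 8.03e-05) and Flrt3 (-0.67, SE 0.076, adjusted p = 0.000263) and the co-receptor Klb (-0.64, SE 0.11, adjusted p = 0.00293). Klb was also low, at 34.7 per kilobase in SIRT1 KO and 53.7 in WT mESCs. It did not pass without WT replicate 3 (adjusted p = 0.0163), with a range from 0.000881 to 0.0163.

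Of 30 genes of the relay from RAS to ERK, 4 were higher and 2 were lower. The adaptor Shc1 was higher at 0.60 (SE 0.048, limma adjusted p = 3.68e-05), the docking protein Gab1 at 0.61 (SE 0.063, adjusted p = 0.000149), the ERK-activated kinase Rps6ka2 at 0.36 (SE 0.049, adjusted p = 0.000733) and Map2k1, encoding MEK1, at 0.26 (SE 0.050, adjusted p = 0.00503). The call of Map2k1 was lost when replicate number was fitted as a block (adjusted p = 0.0107), without any SIRT1 KO library and without WT replicate 1 (adjusted p from 0.018 to 0.0341). Its range was 0.00148 to 0.0341. Gab1 lies on chromosome 8 between 80 and 85 Mb, where 30 of 87 other tested genes were higher, 3 were lower and the median was 0.18. This window is part of a longer stretch of chromosome 8, from 45 to 100 Mb. In that stretch 202 of 584 tested genes were higher, 13 were lower and the median was 0.16. Lower genes were the RAF scaffold Ksr1 (-0.93, SE 0.056, adjusted p = 8.5e-06) and the RAS exchange factor Sos2 (-0.45, SE 0.075, adjusted p = 0.00224), of which Sos2 lost its call without SIRT1 KO replicate 2 or 3 or WT replicate 3 (adjusted p from 0.0114 to 0.0156, and from 0.001 to 0.0156 over all alternatives). Mapk3, encoding ERK1, had 0.00 (adjusted p = 0.993). Over the 6 libraries the ERK-activated kinase Rps6ka1 had the highest mean level per kilobase of the list, 18295 ± 292 in SIRT1 KO and 19317 ± 581 in WT mESCs (SD, n = 3 for both), and did not pass (log2 fold change -0.08, SE 0.048, limma adjusted p = 0.261).

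Of 11 tested relatives of the inhibitors, 1 was higher, none was lower and 10 did not pass (limma, 5 below WT at an unadjusted p under 0.05, a count without a baseline). Dusp1, an immediate-early phosphatase that acts on several MAP kinases, had 13.12 ± 0.034 in SIRT1 KO and 12.49 ± 0.045 in WT mESCs (SD, n = 3 for both), a log2 fold change of 0.63 (SE 0.054, limma adjusted p = 5.76e-05). Dusp9, the most abundant of these per kilobase at 41720 ± 806 in SIRT1 KO and 46071 ± 4599 in WT mESCs, had -0.14 (SE 0.073, adjusted p = 0.199). Dusp10, a phosphatase of stress-activated kinases, had -0.54 (SE 0.12) and an adjusted p of 0.010, just over the threshold (0.00256 with a replicate block, and from 0.00256 to 0.042 over all alternatives), in a 5-Mb window of chromosome 1 where 25 of 68 other tested genes were lower and 3 were higher. The FGF receptor inhibitor Il17rd had -0.33 (SE 0.082, adjusted p = 0.0159), the receptor inhibitor Errfi1 -0.21 (SE 0.061, adjusted p = 0.029), Spred2 -0.53 (SE 0.20, adjusted p = 0.0867) and Dusp16 -0.56 (SE 0.17, adjusted p = 0.0418). WT replicate 2 was high in the last pair, by 0.86 for Spred2 and 0.64 for Dusp16, and without it Spred2 had -0.24 (adjusted p = 0.0174) and Dusp16 -0.34 (adjusted p = 0.0276). Without that library 4 of the 11 genes passed as lower, which were Dusp9 (-0.22, adjusted p = 0.00132), Errfi1 (-0.26, adjusted p = 0.00461), Dusp10 (-0.57, adjusted p = 0.00668) and Il17rd (-0.25, adjusted p = 0.00759). Among all genes tested, 2669 of 26565 were lower without that library, against 2157 of 26571 with all libraries. The list's median was -0.14.

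Of 21 other genes that ERK induces or whose products it phosphorylates, 3 were higher and 2 were lower. The ephrin receptor Epha4 was higher at 0.44 (SE 0.052, limma adjusted p = 0.000325), the AP-1 subunit Fosl2 at 0.57 (SE 0.083, adjusted p = 0.00106) and the immediate-early gene Ier2 at 0.34 (SE 0.074, adjusted p = 0.00881). The level of Fosl2 was low, at 40.8 per kilobase in SIRT1 KO and 27.5 in WT mESCs. Ier2 lies in the same window of chromosome 8 as Gab1, had the highest level per kilobase of the list (36242 in SIRT1 KO and 28619 in WT mESCs) and lost its call in 8 of 17 alternatives (adjusted p from 0.00262 to 0.0316). Cyclin D1 (Ccnd1) was lower at -0.69 (SE 0.060, adjusted p = 5.65e-05), and the ETS repressor Elk3 at -0.40 (SE 0.058, adjusted p = 0.000979). The immediate-early genes Egr1 and Fos had 0.11 (adjusted p = 0.328) and -0.14 (adjusted p = 0.161), and Myc had 0.03 (adjusted p = 0.762). Egr1 and Fos were low, at 23.9 and 79.9 per kilobase in SIRT1 KO and 22.1 and 88.1 in WT mESCs. Junb, at 3808 in SIRT1 KO and 3010 in WT mESCs, lies in the same window of chromosome 8 as Ier2. It had 0.34 (SE 0.077, limma adjusted p = 0.0105), just over the threshold and without overlap. Its adjusted p ran from 0.00434 to 0.0458 over the alternatives. Etv1, the remaining relative of Etv4 and Etv5, had -0.02 (SE 0.096, adjusted p = 0.924).

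**Figure D4:**
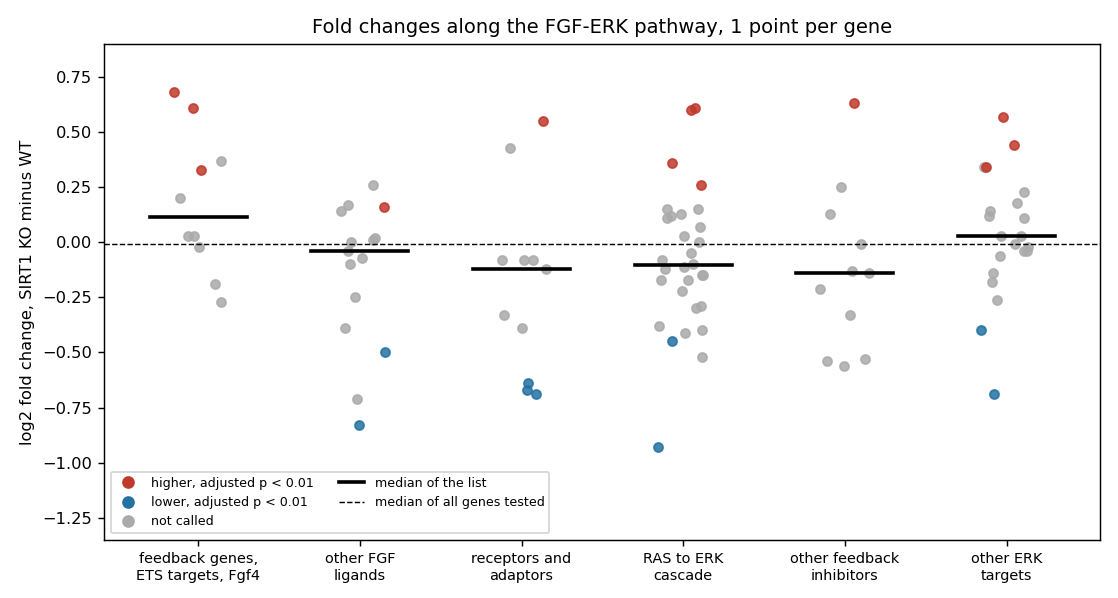
Log2 fold change, SIRT1 KO minus WT, of every tested gene of the pathway (1 point per gene) in 6 groups, red where higher and blue where lower at an adjusted p under 0.01, with the median of each group as a bar and that of all genes tested as a dashed line. Group medians were 0.12 for the 10 genes described here, -0.04 for other ligands, -0.12 for receptors and adaptors, -0.11 for the RAS to ERK cascade, -0.14 for other feedback inhibitors and 0.03 for other ERK targets.

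WT replicate 2 stood apart in part of these genes. Of the 98 tested genes of the pathway, the 10 included, 13 (13.3%) had a value there at least 0.4 above the mean of WT replicates 1 and 3, against 3.17% of all genes tested. All genes tested include low ones, whose values are drawn together between libraries, and genes of matched level were not compared. Spry4, 0.50 above, was the only one of the 10 genes described here with such a value. The others of the 13 included Rps6ka3, an ERK-activated kinase (1.43 above), Frs2, the docking protein of FGF receptors (0.99), Spred2 (0.86), Nf1, encoding neurofibromin (0.85), and Sos1, a RAS exchange factor (0.78). In Frs2 and Rps6ka3 the remaining WT libraries lay close to SIRT1 KO values. Frs2 had 12.87, 12.87 and 12.86 in SIRT1 KO libraries, against 12.87, 13.91 and 12.99 in WT libraries. What sets this library apart was not tested.

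**Figure D5:**
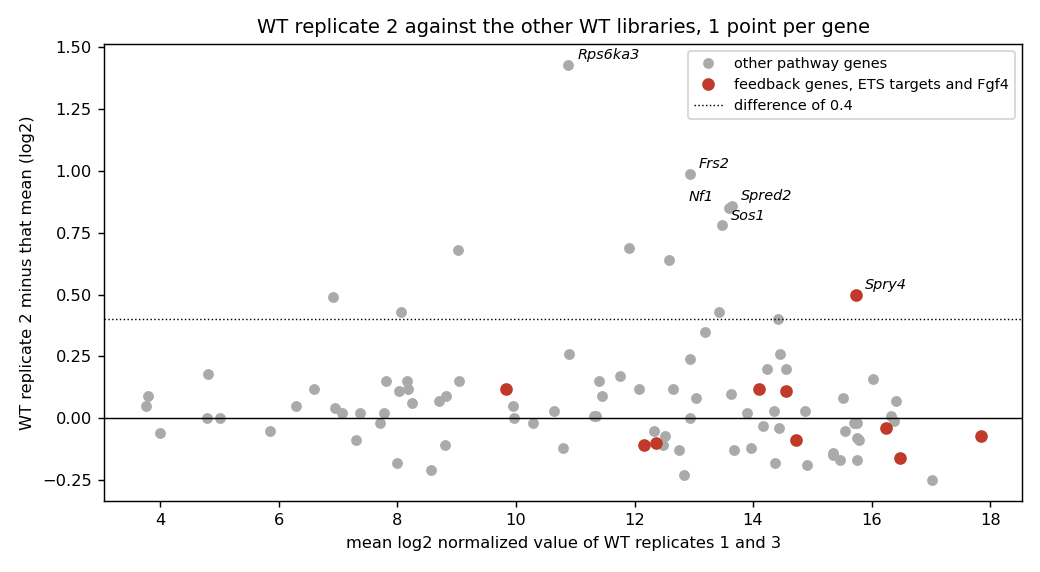
Log2 value of WT replicate 2 minus the mean of WT replicates 1 and 3 (vertical axis) against that mean (horizontal axis), 1 point per tested gene of the pathway, with the 10 genes in red and a dotted line at 0.4. Spry4 at 0.50 lies above the line and the other red points do not, and Rps6ka3 is highest at 1.43.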

How the data were processed

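RNA from 3 SIRT1 KO and 3 WT mESC samples was sequenced. The paper describes ribosomal RNA depletion and the labels poly(A) enrichment. The authors trimmed reads with Trim Galore, aligned them with STAR to GRCm38, counted reads per gene with featureCounts and deposited log2 values normalized between libraries with DESeq2. The kind of transformation and the strand setting are not given in the sources used here. The paper states a sequencing depth only for its libraries in general, and the reads behind a gene's value are not known from log2 values. Of 54352 genes, 16649 are at 0 throughout.

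Genotypes were compared in R 4.3.3 with limma 3.58.1 (mean-variance trend, Benjamini-Hochberg adjustment, threshold 0.01) over the 26571 genes with a linear mean of at least 10. Low values are drawn together between libraries, which understates their changes. The 10 genes and the lists were chosen with earlier results of these data known. Named genes are the 10, up to 8 called genes of each list by smallest adjusted p, the highest of each list per kilobase, and the 3 genes most like the top called one. Sos1, Nf1, Spred2, Frs2, Rps6ka3, Dusp16, Il17rd, Errfi1, Egr1, Egr2, Fos, Junb, Fgf10, Srf, Myc, Etv1, Dusp10, Mapk3, marker genes and the neighbours were named after their values were seen. Names were matched to GENCODE vM21 (98.69%) and RefSeq. Same-numbered libraries deviated together from their group means (correlations 0.242, 0.149 and 0.316), so the numbers were taken to pair them and the block was an alternative. Other alternatives were no filter, a filter at 100, a pseudocount of 10, median centring, quantile normalization, no trend, robust estimation, protein-coding genes only, a threshold of 0.05 and leaving out each library. The steps were tested on simulated data.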

Additional observations from a re-analysis of the deposited data

How the results depend on the processing

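Of the 10 genes, 3 were higher in SIRT1 KO mESCs in every fit with all libraries at the 0.01 threshold, 2 to 4 when a library was left out and 4 at a threshold of 0.05. The number of lower genes was 0 except after quantile normalization (1) and at the 0.05 threshold (1), and it ran from 0 to 1 when a library was left out. Each of these was Etv5. In the pathway lists, 10 genes were higher, with 7 to 11 when a library was left out, and 9 were lower, with 6 to 15 when a library was left out, 14 among protein-coding genes only and 20 at the 0.05 threshold. Shares of all genes called are given only at the 0.01 threshold, for the main fit and without WT replicate 2. Counts from the other alternatives thus have no share beside them. With the replicate number as a block, 3 of the 10 genes were higher and none was lower (limma), and 8 and 11 pathway genes were higher and lower. Pairing the libraries in this way ended the calls of Fgf21 and Map2k1 and no other call of the 10 genes or of the called genes named from the lists. It also added calls of lower genes in the lists, Dusp10 (limma adjusted p = 0.00256) and the ligand Fgf10 (adjusted p = 0.00267). In the main fit Fgf10 had -0.71 (SE 0.19, adjusted p = 0.0221), and without WT replicate 2 it had -0.48 (adjusted p = 0.0143). Median centring moved all fold changes up by 0.06 and changed no call among the 10. None of the 10 genes, the tested genes of the lists or the neighbours reversed its direction where it was called in either fit. The number of reads behind each value is not known from the log2 values, and 3 libraries per genotype limit the precision.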
